A study of Mus musculus with 4 samples.

Results

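Drug efflux transporters are ATP-binding cassette (ABC) proteins of the cell membrane that use ATP to pump drugs and drug conjugates out of the cell. The 7 genes examined here, Abcb1a, Abcb1b, Abcc1, Abcc3, Abcc4, Abcc5 and Abcg2, were taken by name from a table of 56748 mouse genes. All 7 were among the 15320 genes with enough counts to be tested. Bulk RNA sequencing covered 2 saline and 2 ADC/cmLumiOpto samples of metastatic lung from female BALB/cJ mice, which were 7 weeks old at tail vein injection of 4T1-FLuc, a luciferase-expressing line derived from mouse triple-negative breast cancer (TNBC). All 4 samples thus held host lung as well as grafts of a single line. The treated group received an antibody-drug conjugate (ADC), in which an antibody to CD276 carries the microtubule poison mertansine (DM1). It also received cmLumiOpto, an adeno-associated virus packed in exosomes whose product depolarizes the mitochondria of cancer cells once the substrate ViviRen is supplied. The ADC dose is 16 mg/kg in the labels, where the treatment also carries the letters Olap, and 8 mg/kg in the methods, and the design text gives 3 weeks of treatment. Likewise, the control is called both saline and PBS, and the material is called both harvested tumor cells and dissociated lung. The methods count 4 samples per group, of which 2 per group were analysed here.

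Mouse cells carry a pair of genes, Abcb1a and Abcb1b, for the multidrug pump P-glycoprotein, where human cells have a single gene. P-glycoprotein exports hydrophobic drugs, and maytansinoids such as DM1 are among its known substrates. The Abcc genes encode multidrug resistance-associated proteins, which export organic anions, including drugs joined to glutathione, glucuronate or sulfate. Abcg2, the breast cancer resistance protein, works as a dimer and also marks stem-like cells in several tissues.

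Total counts were between 15263375 and 19675436 per sample, so that 3 counts, taken as a floor for counting error, stood for at most 0.202 CPM (counts of a gene per 1000000 counts of its library). Marker lists of lung epithelium had higher sums in the treated samples. The summed level of 6 alveolar type 2 markers was 1513 and 311 CPM in the saline samples and 5448 and 4699 CPM after ADC/cmLumiOpto, and all 6 markers were higher at an unadjusted p under 0.05. All 4 club cell markers were higher at the same threshold, with sums of 1147 and 80.6 CPM against 6210 and 2960 CPM. Of all tested genes, 11.0% were higher at this threshold and 12.2% lower. The 9 endothelial markers summed to 571 and 452 CPM in the saline samples and to 616 and 903 CPM after treatment. All 5 fibroblast markers were lower at this threshold (3669 and 2466 CPM against 1082 and 943 CPM), and the 6 proliferation genes summed to 1025 and 1032 CPM against 661 and 589 CPM. For the 7 markers of tumor and airway epithelium, keratins among them, the sums were 2889 and 3296 CPM against 2788 and 2697 CPM. The part of these differences in the results for the transporters was not tested.

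The question for the transporters was whether their RNA differed between lungs treated with a drug that some of them export and lungs given saline. Abcc1 was the most different of the 7 genes, with a saline mean 1.89 times the treated mean. Abcc3 had a treated mean 1.44 times the saline mean, and Abcc4, Abcb1b and Abcb1a had treated means below the saline means. The groups overlapped for Abcb1b, Abcb1a, Abcg2 and Abcc5. With edgeR (quasi-likelihood test, Benjamini-Hochberg adjustment), 0 of the 15320 genes (0.0%) and thus none of the 7 passed an adjusted p of 0.05. Unadjusted p values under 0.05 were found for 3553 genes, 23.2% of those tested, and for 2 of the 7 transporters, Abcc1 and Abcc3. With genes of low counts kept, this held for 4801 of 25563 genes and for 5 of the 7, with Abcb1a, Abcb1b and Abcc4 added. In that fit the spread was taken almost wholly over all genes, not gene by gene. Values with 1 sample left out are given for the transporters below. With an adjusted p under 0.05, DESeq2 called 1353 genes (8.83%) and edgeR's exact test 1143 (7.46%), and both tools called Abcc1 alone among the 7. The treated and saline samples did not overlap for 3 of the 7 genes, beside 57.0% of all tested genes. The log2 ratio of treated over saline samples (log2 fold change) was below 0 for 5 of the 7, beside 48.0% of all. Its median was -0.44 over the 7 genes and 0.028 over all tested genes. All 7 are longer than the middle of the tested genes, and log2 ratios fell with gene length, so these are not genes of like length. With the length trend removed, the log2 ratio of Abcc5 was 0.23.

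**Figure D1:**
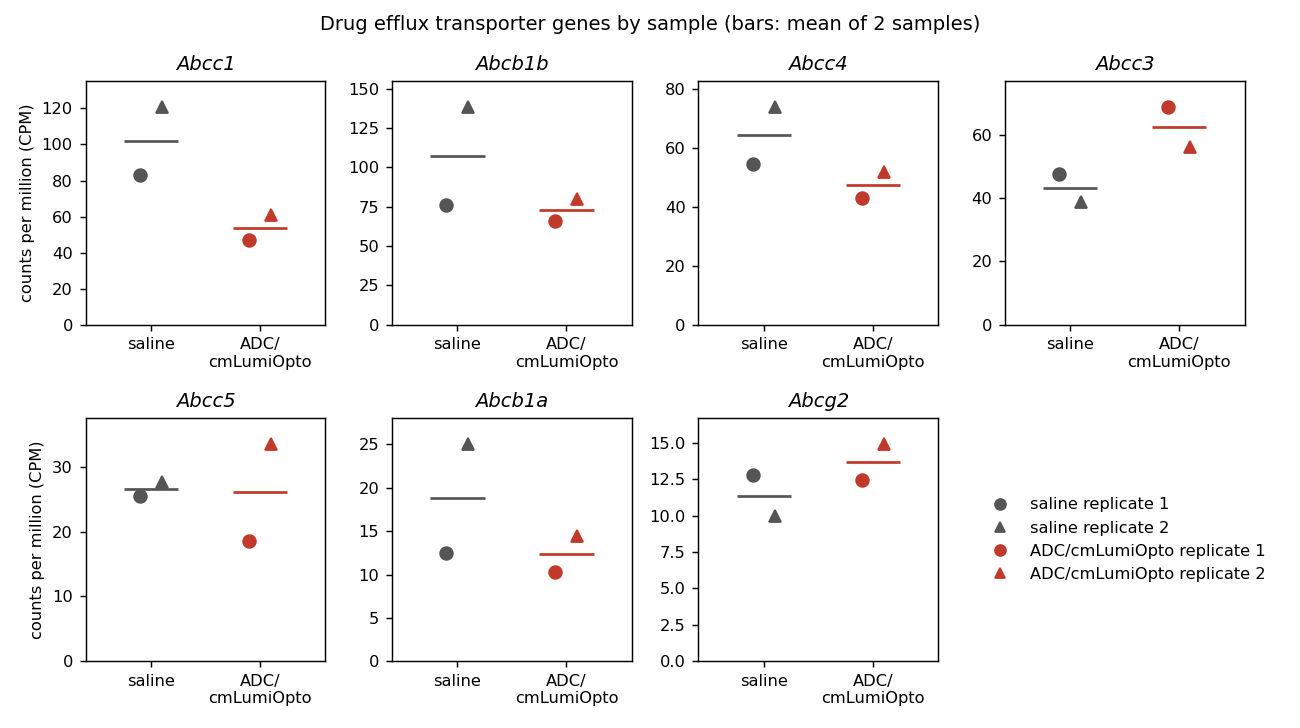
Level of each of the 7 transporter genes in CPM (vertical axes, starting at 0) in each of 4 samples, with circles for replicate 1, triangles for replicate 2, and horizontal bars for the mean of 2 samples. Both treated samples lie below both saline samples for Abcc1 and Abcc4 and above them for Abcc3, and the groups overlap for the other 4 genes.

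Abcc1 (ENSMUSG00000023088; mm39 chr16:14179422-14293601, plus strand) encodes MRP1, which exports glutathione conjugates and leukotriene C4. It was at 83.2 and 121 CPM in the saline samples and at 46.9 and 60.8 CPM in the ADC/cmLumiOpto samples. Both treated samples thus lay below both saline samples, as did those of 28.8% of all tested genes. The log2 ratio was -0.92 (standard error, SE, 0.24), with an adjusted p of 0.123 by edgeR. Its adjusted p was 0.016 in DESeq2 and 0.0297 in edgeR's exact test, and 6.21e-04 in the quasi-likelihood test when genes with low counts were kept, a setting in which 8.84% of 25563 genes passed. In that setting the SE was nearly the same for Abcc1 (0.215), Abcb1b (0.213), Abcc3 (0.216) and Abcc4 (0.215), so it hardly reflects the spread of Abcc1 itself. With 1 sample left out the log2 ratio lay between -1.18 and -0.62. It was the longest of the 7 genes, at 15092 bases, and long genes had in general lower log2 ratios. Once this length trend was removed, the log2 ratio of Abcc1 was -0.58 (adjusted p = 0.206 in edgeR).

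Abcc3 (ENSMUSG00000020865; mm39 chr11:94234121-94283823, minus strand) encodes MRP3, an exporter of glucuronides and bile acids. It was the transporter gene with the clearest difference in the other direction. Its levels were 47.7 and 38.8 CPM in the saline samples and 68.7 and 56.1 CPM after ADC/cmLumiOpto, so that the groups did not overlap, as in 28.1% of all tested genes with the treated samples above. The log2 ratio was 0.53 (SE 0.19, adjusted p = 0.177 by edgeR). With each sample left out in turn it stayed between 0.38 and 0.67.

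Within a sample, the count of Abcc1 over that of Abcc3 does not depend on the library size. This ratio, chosen after the values were seen, was 1.74 and 3.11 in saline lung and 0.683 and 1.08 in treated lung. Abcc1 therefore had more counts than Abcc3 in both saline samples and in 1 treated sample. The ratios of the groups could not overlap, because neither gene overlapped and the 2 differed in opposite directions. This separation thus adds nothing to the results for each gene. Over the 4 samples, the log2 CPM values of the 2 genes had a Pearson's r of -0.996, a description over 4 points that share their library sizes.

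Abcc4 (ENSMUSG00000032849; mm39 chr14:118720104-118943631, minus strand) encodes MRP4, which exports cyclic nucleotides, prostaglandins and nucleoside drugs. It was at 54.8 and 73.9 CPM in the saline samples and at 42.9 and 52.0 CPM in the ADC/cmLumiOpto samples. The groups did not overlap, but saline replicate 1 and ADC/cmLumiOpto replicate 2 lay close together. The log2 ratio of -0.44 (SE 0.21) had an adjusted p of 0.258 by edgeR and was -0.20 without saline replicate 2.

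Abcc5 (ENSMUSG00000022822; mm39 chr16:20150053-20245144, minus strand) encodes MRP5, an exporter of cyclic nucleotides. Its saline samples, at 25.5 and 27.7 CPM, lay between the treated samples, at 18.5 and 33.5 CPM. The treated samples differed 1.81-fold from each other, more than for any other of the 7 genes in that group. The higher of them, ADC/cmLumiOpto replicate 2, had a sum of 7326 CPM over 5 neutrophil markers, against 426 to 1072 CPM in the other samples. It also had the highest sum of endothelial markers (903 CPM, against 452 to 616 CPM). The sums of alveolar type 2 and club cell markers were higher in ADC/cmLumiOpto replicate 1. The part of these differences in the Abcc5 level was not tested. The log2 ratio was -0.031 (SE 0.30, adjusted p = 0.963 by edgeR). Its sign depended on the scaling, with 0.027 by library size without TMM and 0.049 by upper-quartile normalization.

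**Figure D2:**
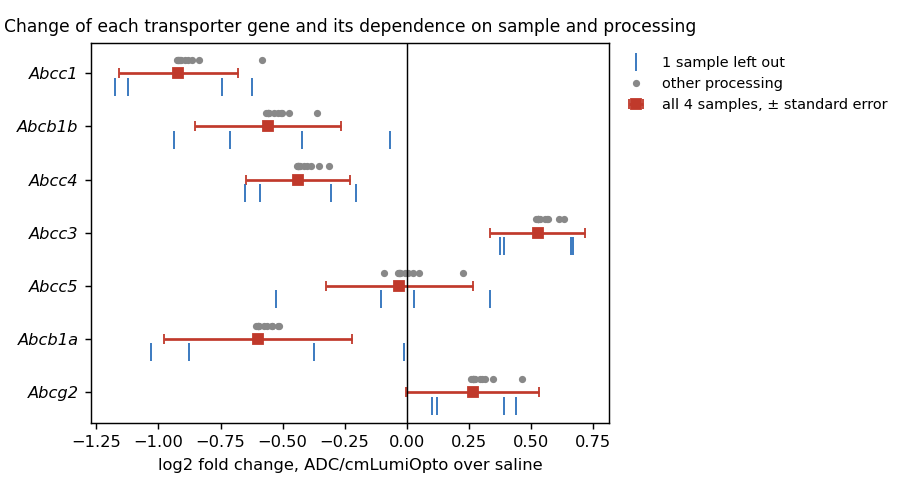
Log2 ratio of each transporter gene, ADC/cmLumiOpto over saline (horizontal axis), as the value from all 4 samples with its standard error (squares), with 1 sample left out (blue ticks) and under other processing (grey dots). Every value of Abcc1, Abcc4, Abcb1a and Abcb1b lies below 0 and every value of Abcc3 and Abcg2 above it, whereas those of Abcc5 lie on both sides.

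The P-glycoprotein genes lie side by side on chromosome 5, Abcb1a (ENSMUSG00000040584) at mm39 chr5:8710077-8798575 and Abcb1b (ENSMUSG00000028970) at mm39 chr5:8848147-8916315, both on the plus strand. They are close copies with identical stretches, and a read from such a stretch can be counted for either gene or for neither. Of the annotated genes that overlap them, none had more than 10 counts in a sample. Their coding sequences, each 3828 bases in the GENCODE M21 transcripts, were identical at 88.0% of 3819 aligned bases. Of all windows of 100 bases along the Abcb1a transcript, 7.49% also occurred in that of Abcb1b, and of windows of 150 bases 4.41%. The longest identical stretch had 338 bases (coding bases 1357 to 1694 of Abcb1a) and lies in the exons that code for the ATP-binding domain in the N-terminal part of the protein. Its first part is shown after the 15 bases before it (coding bases 1342 to 1641 of Abcb1a), because a read that falls wholly inside the stretch has no base that tells the genes apart. The capital marks the base before the stretch that differs in Abcb1b:
Abcb1a: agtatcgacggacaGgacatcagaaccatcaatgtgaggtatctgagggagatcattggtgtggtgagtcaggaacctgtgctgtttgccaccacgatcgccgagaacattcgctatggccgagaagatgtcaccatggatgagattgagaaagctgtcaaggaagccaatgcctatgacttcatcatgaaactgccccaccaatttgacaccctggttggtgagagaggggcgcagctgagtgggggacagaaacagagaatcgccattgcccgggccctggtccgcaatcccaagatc

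Abcb1b was the more abundant copy, at 76.3 and 138 CPM in the saline samples and 65.6 and 79.9 CPM in the treated samples. Abcb1a was at 12.5 and 25.1 CPM against 10.3 and 14.5 CPM. In both genes saline replicate 2 was the highest sample and ADC/cmLumiOpto replicate 1 the lowest, and the groups overlapped. Abcb1b had a log2 ratio of -0.56 (SE 0.29, adjusted p = 0.296 by edgeR). For Abcb1a the log2 ratio was -0.60 (SE 0.38, adjusted p = 0.373 in edgeR). Saline replicate 2 carried most of both differences. Without it, the log2 ratios were -0.065 for Abcb1b and -0.013 for Abcb1a, and without saline replicate 1 they were -0.94 and -1.03. Saline replicate 2 was also the sample with the lowest sums of alveolar type 2 and club cell markers. The part of that difference in the levels of the P-glycoprotein genes was not tested.

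Counts of the copies were summed to remove the effect of how shared reads were split. Any reads counted for neither gene would be missing from the sum as well. The sum had a log2 ratio of -0.57 (SE 0.30, adjusted p = 0.300 by edgeR), close to the value of each gene. Abcb1b made up 85.9% (95% exact binomial interval 84.0 to 87.7%) and 84.7% (83.2 to 86.1%) of the summed counts in the saline samples. In the treated samples it made up 86.5% (84.5 to 88.3%) and 84.7% (83.0 to 86.2%), intervals that cover counting error only. The mean shares were 85.3% ± 0.892 (SD, n = 2) and 85.6% ± 1.29 (SD, n = 2), a difference of 0.286 percentage points that was smaller than the spread within either group (exact permutation test, two-sided p = 0.667, where 0.333 is the smallest that 2 samples against 2 allow). Saline replicate 2 had 1.81 times the Abcb1b level and 2.01 times the Abcb1a level of saline replicate 1. The copies therefore differed between samples by similar factors, with a Pearson's r of 0.991 between their log2 CPM values over the 4 samples, which share library sizes and some reads.

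RefSeq sequences of the 250 bases before an annotated start were held for Abcb1a, Abcb1b, Abcc4, Abcc5 and Abcg2 on GRCm38.p6, a different build from that of the gene positions above. Windows of the pair and of Abcc4 are shown because the log2 CPM values of these 3 genes varied together (Pearson's r of 0.960 for Abcb1a with Abcc4 and 0.964 for Abcb1b with Abcc4, over 4 samples). Abcc1 had an r of 0.973 with Abcc4, and its window was not analysed here. The windows shown were thus chosen after the values were seen, and a shared control of these genes was not tested. For Abcb1a, the RefSeq start lies 92986 bases upstream of the GENCODE M21 start, whereas for Abcb1b they are 39 bases apart. Capitals mark matches on either strand to 5 motifs. The letters TGACNNNGC stand for the antioxidant response element, to which the factor Nrf2 binds. The xenobiotic response element, bound by the aryl hydrocarbon receptor, is GCGTG. The letters ACGTG are those of the hypoxia response element. The CCAAT box is named by its letters. The GC box, bound by Sp1, is GGGCGG. Matches can overlap, as ACGTG does with itself on the other strand:
Abcb1a, chr5:8566841-8567090, plus strand: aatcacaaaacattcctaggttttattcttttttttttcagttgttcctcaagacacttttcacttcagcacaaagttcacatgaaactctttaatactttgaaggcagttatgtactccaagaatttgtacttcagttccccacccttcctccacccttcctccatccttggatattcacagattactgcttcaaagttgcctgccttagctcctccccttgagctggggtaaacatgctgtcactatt
Abcb1b, chr5:8797897-8798146, plus strand: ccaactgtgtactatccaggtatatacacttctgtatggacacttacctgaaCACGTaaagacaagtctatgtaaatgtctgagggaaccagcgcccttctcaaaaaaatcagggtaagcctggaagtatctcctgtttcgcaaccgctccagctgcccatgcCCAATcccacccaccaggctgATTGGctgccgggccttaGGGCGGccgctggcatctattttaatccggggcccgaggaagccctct
Abcc4, chr14:118706220-118706469, minus strand: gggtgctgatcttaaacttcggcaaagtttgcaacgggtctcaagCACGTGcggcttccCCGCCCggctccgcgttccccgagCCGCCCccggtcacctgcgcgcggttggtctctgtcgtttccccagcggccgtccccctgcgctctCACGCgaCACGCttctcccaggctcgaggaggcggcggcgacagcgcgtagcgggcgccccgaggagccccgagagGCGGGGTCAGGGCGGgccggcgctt

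The window of Abcb1a held none of the 5 motifs. It lies before a RefSeq start 92986 bases upstream of the GENCODE M21 start, and its use by the counted transcripts was not tested. The window of Abcb1b held 2 CCAAT boxes, 1 GC box and 1 match to ACGTG. The Abcc4 window shown held 1 match to TGACNNNGC, 2 to GCGTG, 2 to ACGTG and 3 GC boxes. A window before another annotated start of Abcc4 (chr14:118676932-118677181, minus strand) held 1 match to TGACNNNGC and none to the other motifs. Among 32851 RefSeq windows of this length, TGACNNNGC occurred in 10.2%, GCGTG in 28.2%, ACGTG in 16.6%, CCAAT in 33.8% and GGGCGG in 32.7%. A match of letters is a description of the sequence and not a measured site.

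Abcg2 (ENSMUSG00000029802; mm39 chr6:58561508-58672661, plus strand) had the lowest level of the 7 genes per length in every sample. It was at 12.7 and 9.98 CPM in the saline samples and at 12.4 and 14.9 CPM after ADC/cmLumiOpto. The lower treated sample lay below the higher saline sample. The log2 ratio was 0.27 (SE 0.27, adjusted p = 0.578 by edgeR), and 0.47 with the trend on gene length removed (adjusted p = 0.342 in edgeR).

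Levels of different genes were compared as CPM per kilobase of gene length. Averaged over the 4 samples, the order was Abcb1b (11.3), Abcc3 (9.27), Abcc4 (8.75), Abcc1 (5.16), Abcb1a (2.84), Abcc5 (2.46) and Abcg2 (1.53 CPM per kilobase). The highest of these means was 7.34 times the lowest. Abcb1b ranked the highest in both saline samples and in ADC/cmLumiOpto replicate 2, and Abcc3 did so in ADC/cmLumiOpto replicate 1. In the saline samples Abcc3 was at 8.37 and 6.81 CPM per kilobase and ranked below Abcc4 (8.57 and 11.6), whereas in the treated samples it was at 12.0 and 9.84 and ranked above Abcc4 (6.71 and 8.14). The ranges over the samples overlapped for every pair of neighbours in this order. Compared within samples, Abcb1b was above Abcc4, Abcc4 above Abcc1, Abcc1 above Abcb1a, and Abcc5 above Abcg2 in all 4 samples.

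**Figure D3:**
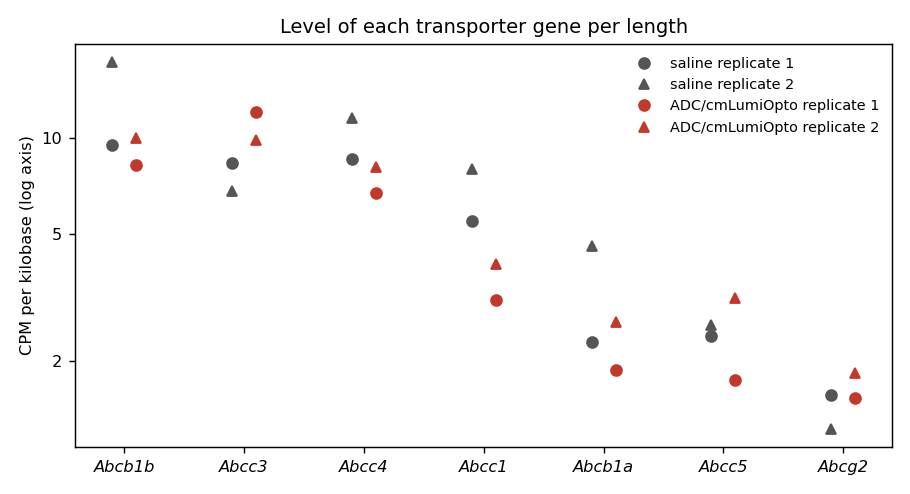
CPM per kilobase of gene length (log axis) of the 7 transporter genes in 4 samples, ordered by the mean over all samples, with circles for replicate 1 and triangles for replicate 2. Abcb1b, Abcc3 and Abcc4 share the top range of 6.71 to 17.3, and Abcg2 is the lowest gene in each sample.

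Across the transcriptome, the log2 ratio fell with gene length (Spearman's rho of -0.34 over 15320 genes, not independent of each other). Of 10 bins of genes by length, the shortest had a median log2 ratio of 0.40 and the longest of -0.30. The transporter genes are between 5480 and 15092 bases long, above the middle of the tested genes. Removal of the length trend brought Abcb1b from -0.56 to -0.36 and Abcc4 from -0.44 to -0.31, and left Abcb1a at -0.52. Under the same correction Abcc3 was at 0.63 and Abcc5 at 0.23. The cause of the trend was not tested.

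**Figure D4:**
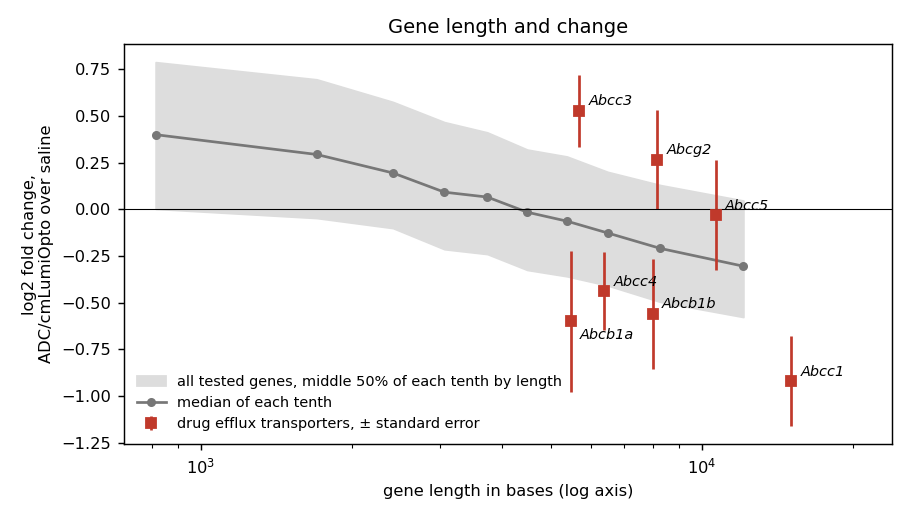
Log2 ratio, ADC/cmLumiOpto over saline, against gene length in bases (log axis) for the 7 transporter genes (squares, ± standard error), with the median and the middle 50% of all tested genes in 10 bins by length. The median falls from 0.40 to -0.30 with length. The values of Abcb1a, Abcb1b and Abcc4 lie under the band, those of Abcc3 and Abcg2 above it, and that of Abcc5 within it. Abcc1 lies to the right of the end of the band, at a lower value than its last part.

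The other 46 ABC genes include transporters of lipids, peptides, metals and bile acids and proteins that act in translation. Of these, 32 were tested, 19 with higher and 13 with lower values after ADC/cmLumiOpto and a median log2 ratio of 0.15. Unadjusted p values under 0.05 were found for 3 higher genes (11.0% of all tested genes) and 1 lower gene (12.2% of all), and by edgeR 0 of the 32 had an adjusted p under 0.05. The number of higher genes at an unadjusted p under 0.05 was 1 with at least 10 counts in every sample. It was 6 without the filter on low counts and 6 with a replicate block, and it moved in both directions with 1 sample left out. That of lower genes was between 0 and 2 over the alternatives, with 2 without saline replicate 1 and 2 without ADC/cmLumiOpto replicate 2. DESeq2 called 1 of the 32, Cftr, and the exact test 2, Cftr and Abca17. The 14 genes not tested had few counts. Abcc2, the apical exporter MRP2 of liver and gut, had 0 counts in every sample and was named after its values were seen.

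Several of the 8 other ABC genes with the smallest p had low counts. For Abca17, saline lung gave 2 and 0 counts and treated lung 13 and 22. Cftr, the chloride channel of airway epithelium, had 15 and 3 counts against 51 and 71, a log2 ratio of 2.45 (SE 0.70, adjusted p = 0.134 in edgeR). Abcg3 had 19 and 7 against 68 and 28 counts. The cholesterol exporter Abcg1 had 511 and 279 counts against 693 and 903, a log2 ratio of 0.71 (SE 0.27, adjusted p = 0.187 in edgeR). For the sterol transporter Abcg8, saline lung gave 12 and 21 counts and treated lung 3 and 5. Abca1, the exporter of cholesterol to apolipoprotein A-I, had a log2 ratio of -0.45 (adjusted p = 0.268 in edgeR), Abca8a of 1.06 (adjusted p = 0.266) and Abcf3 of 0.32 (adjusted p = 0.276). Both treated samples lay above both saline samples for Abca17, Cftr, Abcg3, Abcg1, Abca8a and Abcf3, and below them for Abcg8 and Abca1. Genes picked for a small p are likely to be separated in this way. Of all 32 genes, 8 had the treated samples above (28.1% of all tested genes) and 10 below (28.8% of all).

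**Figure D5:**
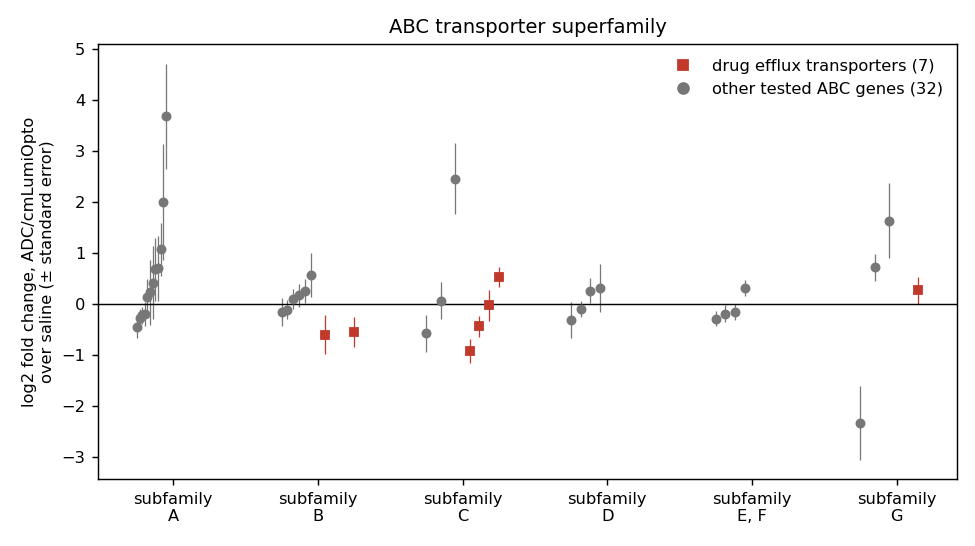
Log2 ratio, ADC/cmLumiOpto over saline, with its standard error, of 7 drug efflux transporters (squares) and 32 other tested ABC genes (circles) by subfamily. The transporters lie between -0.92 and 0.53, and the other genes between -2.33 and 3.67. The ends of the latter range are Abcg8 and Abca17, which had at most 22 counts in a sample. Of the other genes only Abcg8 lies below Abcc1, whereas several lie above Abcc3.

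Factors known to act on efflux transporter genes were examined as a list of 13. The xenobiotic receptors Nr1i2 (PXR) and Nr1i3 (CAR) had 0 counts in every sample, which at these depths allows at most 0.202 CPM. Both were named after their values were seen. Of the 10 tested genes, 7 had lower and 3 higher values, with a median log2 ratio of -0.36, and 4 were lower at an unadjusted p under 0.05 (12.2% of all genes). This count was 2 by library size without TMM, by upper quartile, by the exact test and without saline replicate 1. It was 1 with the length trend removed, without saline replicate 2 and without ADC/cmLumiOpto replicate 1. Hif1a, the hypoxia-inducible factor, had a log2 ratio of -0.73 (SE 0.19, adjusted p = 0.123 in edgeR), from 3584 and 4412 counts to 2780 and 3212. The aryl hydrocarbon receptor gene Ahr had one of -0.57 (SE 0.20, adjusted p = 0.174 in edgeR), and Sp1, which binds GC boxes, one of -0.43 (adjusted p = 0.187). By edgeR none of the 10 passed the adjusted threshold, whereas DESeq2 and the exact test each called 1, Hif1a.

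The 3 genes whose log2 CPM values were most like those of Abcc1 over the 4 samples were Med13l (ENSMUSG00000018076, a subunit of the Mediator kinase module), Gse1 (ENSMUSG00000031822) and Trp53bp2 (ENSMUSG00000026510). Their Pearson's r with Abcc1 was above 0.999 in each case, and their log2 ratios were -0.97, -0.92 and -0.51. With 4 points such values are common, since 1237 of 15319 genes (8.07%) had an r above 0.95.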

How the data were processed

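RNA sequencing of 2 saline and 2 ADC/cmLumiOpto samples was grouped by sample titles. The deposited table holds unnormalized counts per gene. The methods name HISAT2 and GRCm38, the submitters' processing notes HISAT2 and mm39. The counting program and strand setting are not given in the sources used here. Of 52073 identifiers shared with GENCODE M21 on GRCm38, 1435 had the listed positions, so positions are taken as mm39.

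The test used edgeR 4.0.16 (R 4.3.3), with filterByExpr (minimum count 10, minimum total 15), TMM, estimateDisp, glmQLFit and glmQLFTest with defaults, and Benjamini-Hochberg adjustment over 15320 genes. The standard error is the log2 fold change (prior count 0.125) divided by the square root of F. CPM used TMM library sizes (floor 3 counts), and log2 CPM a prior count of 2. Simulated data with known changes were tested first.

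Members and gene lists were chosen with earlier results of these data known. Named genes are the members, Cd276, the 8 other ABC genes and the 3 genes of each further list with the smallest p, and the 3 genes (over 4 samples) most correlated with the leading member. Alternatives were DESeq2 1.42.0, other scalings, filters and tests, protein-coding genes only, a replicate block, removal of a lowess trend on length (span 0.3) and each sample left out. No label says that samples came from separate animals (the methods write biological samples), so p values measure the spread between samples. Without the filter on low counts, the fitted spread was nearly shared over genes, and p values there do not measure that of each gene. In bulk tissue, fewer cells of a type and less RNA per cell cannot be told apart.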

Additional observations from a re-analysis of the deposited data

How the results depend on the processing

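With 2 samples per group, the number of genes at an adjusted p under 0.05 was 0 in edgeR's quasi-likelihood test and also 0 when the scaling was changed, the filter made stricter, the length trend removed or the current form of the test used (legacy=FALSE, chosen after the data had been seen, with 3641 genes at an unadjusted p under 0.05). It was 1353 with DESeq2, 1143 with the exact test, 2259 without the filter on low counts and 607 with a replicate block, and between 0 (without ADC/cmLumiOpto replicate 2) and 218 (without saline replicate 1) with 1 sample left out. The count at an unadjusted p under 0.05 was 3553, and between 1687 (without saline replicate 2) and 3654 with 1 sample left out. In these fits the lone sample of a group is assumed to vary like the other group.

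Abcc1 passed the adjusted threshold with DESeq2 (-0.92), the exact test (-0.92), no filter on low counts (-0.93) and the replicate block (-0.91, adjusted p = 0.0406 in edgeR), and its log2 ratio lay between -1.18 and -0.62 with 1 sample left out. At the adjusted threshold the block changed no other call of the 7 genes. At an unadjusted p under 0.05 it also took in Abcb1b and Abcc4, so that 4 of the 7 passed in place of 2. Over all tested genes, 3845 passed with the block in place of 3553. Samples of the same number share only that number (correlation of their deviations 0.0985 over genes). The log2 ratio of Abcc5 was 0.027 by library size, 0.049 by upper quartile, 0.0066 with at least 10 counts in every sample and 0.23 with the length trend removed, and between -0.53 and 0.33 with 1 sample left out. The other 5 genes kept their direction under all alternatives. The ranges with 1 sample left out were -1.03 to -0.013 for Abcb1a, -0.94 to -0.065 for Abcb1b, -0.65 to -0.20 for Abcc4, 0.38 to 0.67 for Abcc3 and 0.10 to 0.44 for Abcg2. The median of the other ABC genes lay between -0.11 and 0.299 with 1 sample left out. That of the regulators was -0.27 by upper quartile, -0.43 without the filter and -0.23 with the length trend removed, and between -0.46 and -0.25 with 1 sample left out. The legacy form of the test is the default of the edgeR version used and gave the same values. The cause of these differences was not tested.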

Other observations

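Cd276, which encodes the surface protein that the ADC binds, had 1749 and 1483 counts in saline lung and 1124 and 1465 in treated lung, a log2 ratio (treated over saline) of -0.63 (standard error, SE, 0.17, adjusted p = 0.123 by edgeR). In CPM the groups did not overlap.

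Enzymes that make or conjugate glutathione, sulfate or glucuronate supply the substrates of the Abcc transporters. Of 13 tested genes of this kind, 8 had higher and 5 lower values, with a median log2 ratio of 0.17, which was -0.066 without saline replicate 1 and -0.093 with the trend on gene length removed. Unadjusted p values under 0.05 were found for 2 higher genes (11.0% of all tested genes were higher at this threshold) and 1 lower gene (12.2% of all), together 23.1% of the list beside 23.2% of all tested genes. The lower gene count was 3 without saline replicate 1, 0 without saline replicate 2 and 2 without ADC/cmLumiOpto replicate 2, 3 without the filter on low counts and 2 with the length trend removed. By edgeR 0 of the 13 passed the adjusted threshold, whereas DESeq2 called 3 (Gstt1, Mgst1 and Gsr) and the exact test 1 (Gstt1). Gstt1, a glutathione transferase, had 157 and 121 counts in saline lung and 522 and 364 in treated lung, a log2 ratio of 1.40 (SE 0.31, adjusted p = 0.116 in edgeR). Mgst1, the microsomal glutathione transferase, had 1271 and 1073 counts against 2333 and 2185, a log2 ratio of 0.65 (adjusted p = 0.127 in edgeR). Glutathione reductase, Gsr, had a log2 ratio of -0.76 (adjusted p = 0.136 in edgeR).

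Carriers of drugs and metals outside the ABC family were examined as a list of 16, of which 14 were tested, 8 with higher and 6 with lower values. Of these, 2 higher and 2 lower genes had an unadjusted p under 0.05, together 28.6% beside 23.2% of all tested genes (11.0% higher, 12.2% lower). The median log2 ratio was 0.019, and -0.036 without ADC/cmLumiOpto replicate 1 and -0.034 without ADC/cmLumiOpto replicate 2. The count of higher genes was 1 without saline replicate 2 and without either ADC/cmLumiOpto replicate, and that of lower genes was 1 without saline replicate 1. By edgeR 0 of the 14 passed the adjusted threshold, whereas DESeq2 called 3 (Atp7a, Atp7b and Slco2a1) and the exact test 2 (Atp7b and Slco2a1). The copper pumps differed in direction. Atp7b had 26 and 13 counts in saline lung and 90 and 188 in treated lung, a log2 ratio of 2.50 (SE 0.51, adjusted p = 0.116 in edgeR), and Atp7a had one of -0.76 (adjusted p = 0.126 in edgeR). Slco2a1, the prostaglandin transporter, was the most abundant carrier of these 3, with 12531 and 14679 counts against 7421 and 10446 and a log2 ratio of -0.93 (SE 0.20, adjusted p = 0.116 in edgeR). Slc46a3, a lysosomal carrier known to release maytansinoid catabolites of ADCs into the cytosol, had 68 and 34 counts against 105 and 97, a log2 ratio of 0.70 (SE 0.43, adjusted p = 0.358 in edgeR). It was named for this role and after its values were seen.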
